A study of Homo sapiens with 4 samples.

Results

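The Krüppel-like factor (KLF) loci examined here were the genes of 10 members of this transcription factor family, KLF2, KLF3, KLF4, KLF5, KLF6, KLF7, KLF9, KLF10, KLF12 and KLF13, with their flanks, 1543 kb of the genome in all. An ATAC-seq peak was assigned to a locus when its summit lay in the gene body or at most 50 kb from a transcription start site (TSS) annotated for the gene, a rule that used position only. It found 78 of the 101142 deposited peaks of the CTR list and 98 of the 109486 of the p63 list. Peaks at a −log10 q of at least 10 are called open regions, and these numbered 49 of 56680 in the CTR list and 47 of 62343 in the p63 list. All coordinates are hg38.

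ATAC-seq tags DNA that a transposase can reach, so that a peak marks accessible chromatin. The cells were BJ, an established human fibroblast line, as polyclonal populations that carried retroviral constructs under doxycycline control and the transactivator needed to induce them. CTR cells expressed KLF4 alone, and p63 cells expressed ΔNp63α and KLF4 from 1 construct, each after 72 h of doxycycline at 1 µg/ml. There were 4 samples, 2 for each group, and each replicate was a new induction of the same populations, yet each group was deposited as 1 pooled peak list. No spread between replicates can therefore be given, no test was made, and every difference below is between 2 lists. KLF4 was expressed from a construct in both groups, so neither list shows these loci in cells without added KLF4.

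Krüppel-like factors bind GC-rich and CACCC-type sequences through C-terminal zinc fingers of a kind they share with the SP factors. KLF2, KLF4, KLF5, KLF6 and KLF7 are mostly known as activators, KLF3 and KLF12 as repressors that recruit CtBP, and KLF9, KLF10 and KLF13 as repressors that recruit Sin3A. KLF4 and KLF5 are prominent in epithelia, where p63 governs the stratified layers, and KLF6, KLF9 and KLF10 are widely expressed genes that respond to growth signals or hormones.

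Most open regions of the KLF loci were found in both lists. The CTR list had 49 and the p63 list 47, and 41 of each overlapped an open region of the other list by at least 1 bp. In the CTR list, 8 of the 49 had no open counterpart, 16.3% (95% Wilson interval 8.51% to 29.0%), beside 16.5% of all open regions of that list. In the p63 list, 6 of the 47 had none, 12.8% (5.98% to 25.2%), beside 23.9% of all open regions. The CTR share was near the background, and the p63 share lay under the background with an interval that included it. Regions with no peak at any threshold in the other list numbered 2 in CTR, beside 3.29% of all open regions, and 2 in p63, beside 12%. The intervals given here and for pileups cover counting error only.

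**Figure D1:**
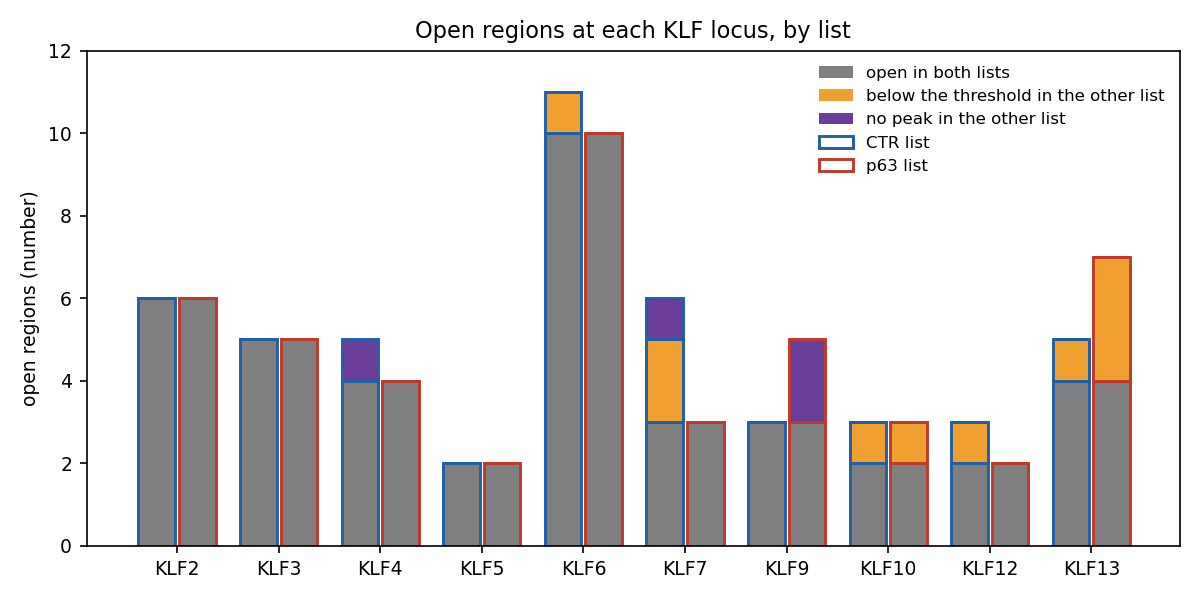
Open regions (number) at each of the 10 KLF loci in the CTR list (blue outline) and the p63 list (red outline), stacked by whether the other list had an open region, a peak under the threshold or no peak. KLF6 had the most, 11 and 10, while KLF7 had 6 and 3 and KLF13 had 5 and 7.

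KLF6 had 11 open regions in CTR and 10 in p63, which is 10.5 and 9.52 per 100 kb of its window. KLF2, an activator best known in endothelium and T cells, had 6 in each list. KLF3 had 5 in each, KLF5 had 2 in each and KLF10 had 3 in each. KLF12 had the lowest density, 0.602 and 0.401 per 100 kb, across a window of 498 kb that its long introns fill. Every member had at least 1 open region in both lists. KLF7 had 6 against 3, KLF4 had 5 against 4 and KLF12 had 3 against 2, with more in the CTR list, whereas KLF9 had 3 against 5 and KLF13 had 5 against 7, with more in the p63 list. Differences of this size rest on 1 to 3 regions.

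**Figure D2:**
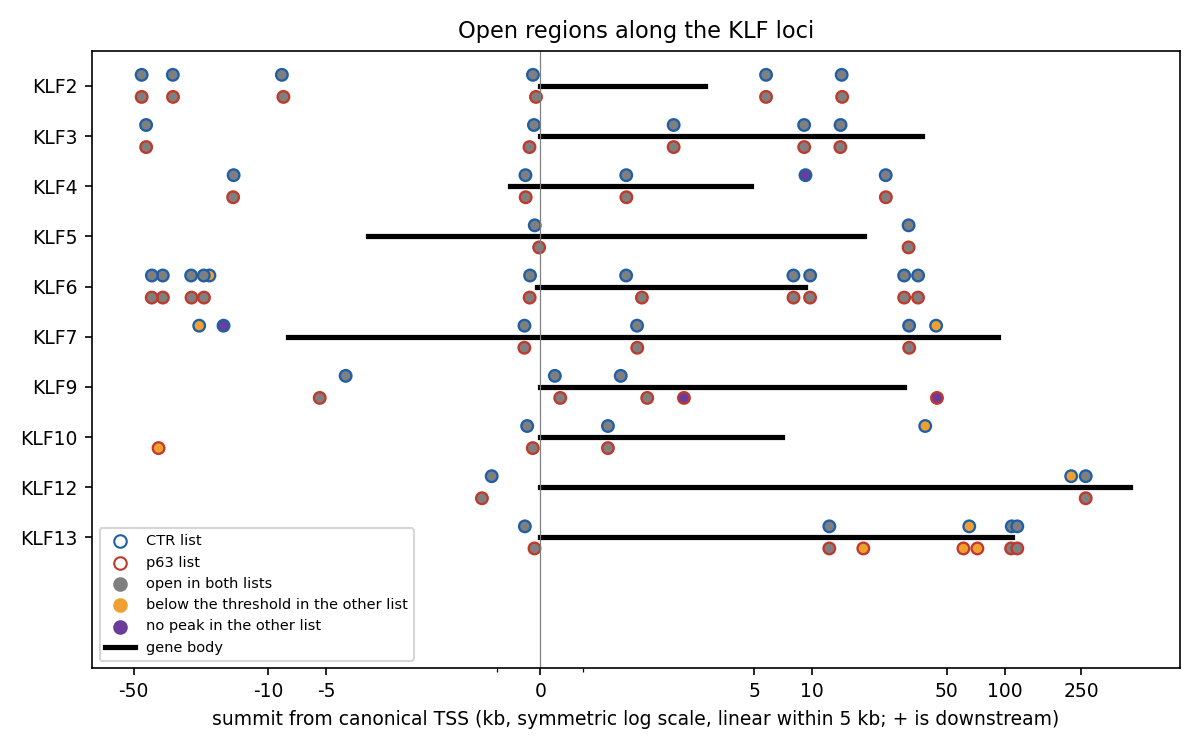
Position of each open region along the KLF loci, as the distance of its summit from the canonical TSS (kb, symmetric log scale, positive downstream), with CTR points (blue outline) above and p63 points (red outline) under each gene body (black bar). The regions nearest to each TSS were open in both lists, and 12 of the 14 regions open in 1 list only lay more than 10 kb from it.

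Both regions of these loci that held a p53/p63 family site within 100 bp of the summit were open in the p63 list only. The site searched was the 20-bp palindrome of this family, the same on either strand. Only the C and G of both cores were fixed. At most 3 mismatches were allowed at the 16 other positions, which include the A or T bases inside the cores. The site was present at 2 of 47 open regions in the p63 list, 4.26% (1.17% to 14.2%), beside 3.78% of all open regions of that list. It was present at 0 of 49 in the CTR list, which allows up to 7.27%, beside 0.932% of all. The p63 share was near the background, and both sites had 3 mismatches, the most allowed. Over all open regions, 2357 held a site in the p63 list and 528 in the CTR list. The share of these open in 1 list only was not computed. That both regions here were p63-only therefore has no background to be set beside. The window of 201 bp around the KLF13 summit is shown for its p63-family match, on the plus strand and with the site in capitals.
KLF13 downstream region, chr15:31387703-31387903: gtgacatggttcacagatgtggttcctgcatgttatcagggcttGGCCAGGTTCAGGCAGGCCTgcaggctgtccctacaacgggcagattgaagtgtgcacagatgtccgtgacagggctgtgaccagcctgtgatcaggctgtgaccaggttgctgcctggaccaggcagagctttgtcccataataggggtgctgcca

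The KLF9 region, chr9:70370077-70370266, was intergenic, 44449 bp downstream of the KLF9 TSS and 23816 bp from the nearest annotated TSS, that of SMC5. Fold enrichment here is the ratio of the summit pileup to the local background, with a single read added to each. The KLF9 region reached a fold enrichment of 7.52 with 15 reads (95% Poisson interval 8.40 to 24.7), and the CTR list had no peak there. Its −log10 q of 10.7 was just above the threshold, and 15 reads was the lowest pileup of any open region at these loci. The KLF13 region, chr15:31387213-31387995, lay 60968 bp downstream of the canonical TSS, past the end of the canonical transcript but within the annotated gene. It had a fold enrichment of 7.26 with 30 reads (20.2 to 42.8) in the p63 list. The strongest overlapping CTR peak had a fold enrichment of 3.89 with 11 reads and a −log10 q of 3.68, so the region was present but weak in the CTR list.

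At their TSS, the KLF genes were open in both lists, with little difference between them. An open region lay within 1 kb of the canonical TSS at 9 of the 10 genes in both lists, and the fold enrichment ratio of p63 to CTR at these 9 ran from 0.883 to 1.30 with a median of 1.03. The p63 value was the higher at 6 of the 9. The summit pileup ran from 60 reads at KLF13 to 121 at KLF7 in the CTR list and from 65 at KLF13 to 113 at KLF9 in the p63 list. In this order, the 95% Poisson intervals of all 8 pairs of neighbours overlapped in both lists. Of the 36 possible pairs, 6 in each list had intervals apart, all with KLF3, KLF5 or KLF13 as the lower gene. The pileup at a summit is a level at 1 position and does not depend on the length of the gene.

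**Figure D3:**
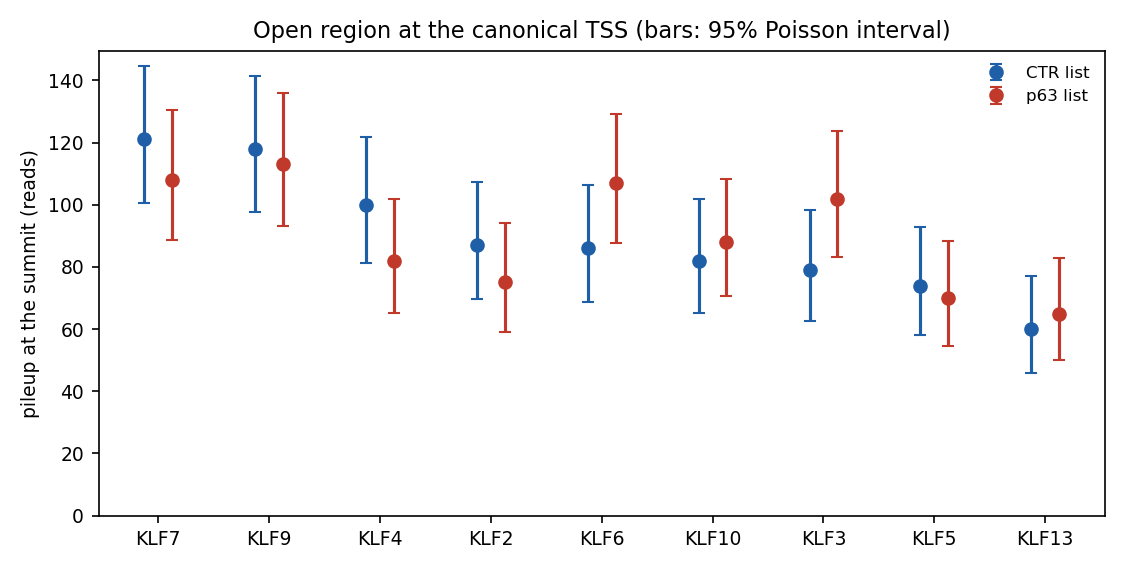
Summit pileup (reads) of the strongest open region within 1 kb of the canonical TSS at 9 KLF genes, with 95% Poisson intervals, in the CTR list (blue) and the p63 list (red), ordered by the CTR value. The CTR and p63 intervals of each gene overlap, and KLF13 is lowest in both lists.

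At the activator KLF2, the TSS region chr19:16324363-16325392 had a fold enrichment of 12.6 with 87 reads in the CTR list and 13.4 with 75 reads in the p63 list. KLF5, an activator of basal epithelial cells and of proliferation, had 9.65 with 74 reads and 9.11 with 70 reads at chr13:73058531-73059634. At KLF7, known for its part in neuronal differentiation, the TSS region chr2:207165798-207167225 had 8.43 with 121 reads and 7.75 with 108 reads. The Poisson intervals of the lists overlapped at all 3. Their CTR windows each held 1 match to a KLF-type motif, searched as GGGCGTGGC, GGGTGTGGC, GGGCGGGGC or GGGTGGGGC on both strands, of which the last 2 are also the GC boxes of SP factors. At the CtBP-binding repressor KLF3, the TSS region chr4:38663411-38664372 had a fold enrichment of 6.86 with 79 reads in the CTR list and 8.66 with 102 reads in the p63 list, a ratio of 1.26. It held 2 overlapping matches. The CTR windows of these 4 genes are shown for the motif in capitals, on the plus strand.
KLF2 TSS region, chr19:16324556-16324756: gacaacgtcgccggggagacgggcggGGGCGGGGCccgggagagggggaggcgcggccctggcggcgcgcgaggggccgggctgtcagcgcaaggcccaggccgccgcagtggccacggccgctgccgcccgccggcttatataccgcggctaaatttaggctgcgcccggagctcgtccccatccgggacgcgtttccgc
KLF5 TSS region, chr13:73058777-73058977: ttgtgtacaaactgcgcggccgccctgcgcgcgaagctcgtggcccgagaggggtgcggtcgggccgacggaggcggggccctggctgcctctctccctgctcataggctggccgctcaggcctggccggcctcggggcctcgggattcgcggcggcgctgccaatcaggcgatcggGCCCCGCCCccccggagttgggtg
KLF7 TSS region, chr2:207166216-207166416: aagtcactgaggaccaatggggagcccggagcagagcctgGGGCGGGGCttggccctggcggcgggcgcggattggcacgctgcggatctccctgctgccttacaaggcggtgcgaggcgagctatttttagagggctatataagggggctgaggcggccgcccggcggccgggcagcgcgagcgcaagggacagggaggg
KLF3 TSS region, chr4:38663952-38664152: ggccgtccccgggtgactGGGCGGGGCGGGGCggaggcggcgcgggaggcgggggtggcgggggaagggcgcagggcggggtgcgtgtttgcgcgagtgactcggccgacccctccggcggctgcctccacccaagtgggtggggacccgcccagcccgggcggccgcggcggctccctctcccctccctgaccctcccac

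All of these matches were the GGGCGGGGC form, read on the minus strand at KLF5. The KLF2 match lay -74 bp from the CTR summit and fell outside the p63 window, whose summit was closer to the TSS, while those at KLF3, KLF5 and KLF7 were in the windows of both lists. Over all KLF loci, 7 of 49 CTR regions held a KLF-type motif, 14.3% (7.10% to 26.7%), beside 7.4% of all open regions of that list. In the p63 list it was 6 of 47, 12.8% (5.98% to 25.2%), beside 7.14%. Among regions within 3 kb of a TSS, called promoter regions, the shares were 6 of 28 in CTR, 21.4% (10.2% to 39.5%), beside 14%, and 3 of 25 in p63, 12% (4.17% to 29.96%), beside 13.1%. Away from promoters they were 1 of 21, beside 2.91%, and 3 of 22, 13.6% (4.75% to 33.3%), beside 3.28%, the latter being an intron of KLF3, the last exon of KLF6 and the region far downstream in KLF13. The intervals included the background except for this last share, which rests on 3 regions. The KLF6 region is among these 3 because its p63 summit lay 3004 bp from a TSS, and it counted as a promoter region in CTR, where its summit lay at 2996 bp. Promoter regions were 57.1% (43.3% to 70.0%) of the open regions at KLF loci in CTR, beside 40.4% of all. In p63 they were 53.2% (39.2% to 66.7%), beside 39.4%. The loci were drawn around genes and their TSSs, a rule that favours promoter regions, so these shares are a description only. The strict forms GGGCGTGGC and GGGTGTGGC matched 1 region in each list, beside 1.62% and 1.64% of all, and it was the same place in the last exon of KLF6.

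The other TSS regions followed the same pattern. KLF6 had a fold enrichment of 6.79 with 86 reads in the CTR list and 8.83 with 107 reads in the p63 list at chr10:3784971-3785775, a ratio of 1.30 and the highest of the 9. KLF9, a hormone-responsive repressor, had 6.31 with 118 reads and 6.50 with 113 reads at chr9:70413570-70414489, inside the first exon. KLF13 had 7.41 with 60 reads and 7.96 with 65 reads at chr15:31325742-31327262. KLF12, whose product represses AP-2α, had no summit within 1 kb of its TSS, but a broad region of 2260 bp in CTR and 2106 bp in p63 spanned it. Its summits lay -1134 and -1362 bp from the TSS, with fold enrichments of 5.32 and 6.05. Among RefSeq promoters of hg38, 250 bases before to 50 after a start, 8 of the 10 genes had an entry and 6 of these 8 held a KLF-type motif. By promoter, 6 of 15 held one, 40%, beside 18.4% of all 35116 promoters. KLF7 and KLF12 had 4 promoters each and KLF5 had 2, so the 15 are not independent.

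KLF10, the TGFβ-induced early gene and a Sin3A-binding repressor, had the TSS region with the lowest fold enrichment, 4.65 with 82 reads in the CTR list and 4.73 with 88 reads in the p63 list. Its local background was high, 16.8 and 17.8 reads. A second open region in the first intron reached 6.87 with 121 reads in the CTR list and 6.93 with 130 reads in the p63 list, the highest pileup of any KLF region in p63 and level with the KLF7 TSS region in CTR. The fold enrichment ratios of p63 to CTR were 1.02 at the TSS and 1.01 in the intron, so both were almost alike in the lists. Each list also had 1 region at KLF10 that the other did not call open. The CTR region at chr8:102616661-102617219, 38611 bp downstream, had 10.7 with 34 reads and a −log10 q of 25.6, against 5.98 with 17 reads and 8.96 for the overlapping p63 peak. The p63 region at chr8:102692514-102692918, -37109 bp from the TSS, had 7.52 with 15 reads, against 4.59 with 9 reads in the CTR list. The CTR region was the strongest of the 14 open in 1 list only.

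KLF4, the factor that both groups expressed from a construct and a key regulator of epidermal barrier genes, was examined exon by exon. A peak lay wholly inside exon 3 in both lists and covered 86.5% of its 973 bp in CTR and 90.0% in p63. Exon 3 is all coding and makes up 67.7% of the 1437 coding bases. Exons 2, 4 and 5 carried no peak in either list. Exon 1 was covered over 34.7% and 28.7% of its length by the edge of the TSS region. The exon 3 peak had a fold enrichment of 6.07 with 70 reads (54.6 to 88.4) in the CTR list and 8.37 with 91 reads (73.3 to 112) in the p63 list, a ratio of 1.38. In contrast, the TSS region, chr9:107489561-107490593, had 8.76 with 100 reads (81.4 to 122) in CTR and 7.74 with 82 reads (65.2 to 102) in p63, a ratio of 0.883. The exon and the TSS thus moved in opposite directions, and the intervals of the lists overlapped at each.

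**Figure D4:**
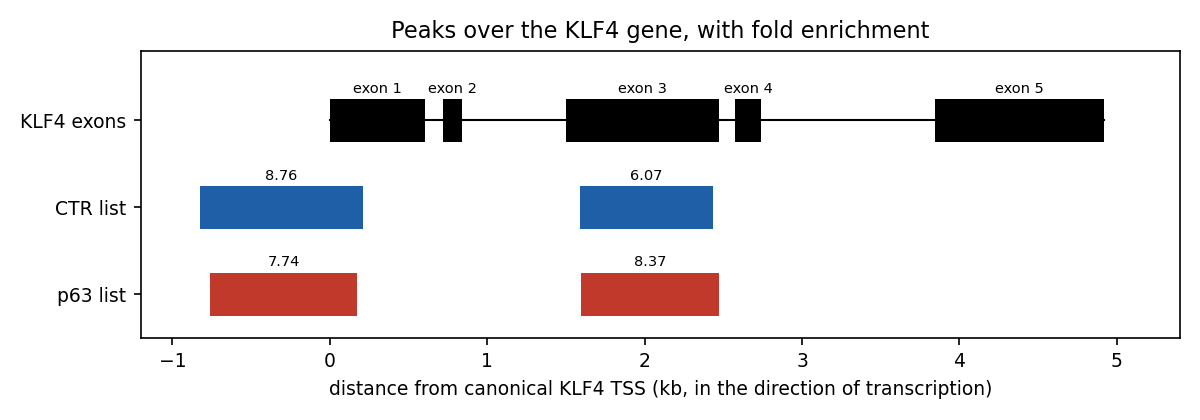
Exons of KLF4 (black) and peaks of the CTR list (blue) and the p63 list (red), all above the threshold, by distance from the canonical TSS (kb, in the direction of transcription), with the fold enrichment above each peak. The exon 3 peak lies within the exon in both lists, and its fold enrichment is 6.07 in CTR and 8.37 in p63.

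Reads from the KLF4 construct would map to the coding exons of the gene, and reads from the endogenous locus map there too, so the sources of the exon 3 peak cannot be told apart in these lists. Exon 2, at 121 bp, is shorter than the shortest deposited peak, 148 bp. Exon 4, at 165 bp, and exon 5, at 1075 bp with 173 of them coding, are not. Peaks inside a single exon were also found at KLF6, KLF9 and KLF13, which were on no construct. Those of KLF13 were under the threshold, with 7 reads in CTR and 11 reads in p63, and did not overlap each other. The KLF6 peak in exon 4 had a fold enrichment of 4.54 with 38 reads in the CTR list and 5.87 with 46 reads in the p63 list, and the KLF9 peak in exon 1 is its TSS region. Both of these exons are longer than exon 3 of KLF4, 3595 bp and 1799 bp, and the peaks left more of them uncovered. These lengths are given as a description, and the source of the exon 3 peak was not tested. Without the peaks that touch a KLF4 exon, the open regions numbered 47 in CTR and 45 in p63, and the regions open in 1 list only were still 8 and 6.

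The 41 matched regions had nearly the same fold enrichment in both lists. The ratio of p63 to CTR had a median of 1.03, beside 1.04 over all 47341 matched regions, and ran from 0.663 to 1.55. It was above 1 at 27 of the 41, 65.9%, beside 58.1% of all. A single region was 1.5 times or more higher in the p63 list, beside 3.19% of all matched regions, and a single region was 1.5 times or more lower, beside 1.36%. Both counts were near what the background gives, 1.31 and 0.559 of 41. Fold enrichments were not scaled between the lists, so the ratios carry any difference in depth or in noise between them.

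**Figure D5:**
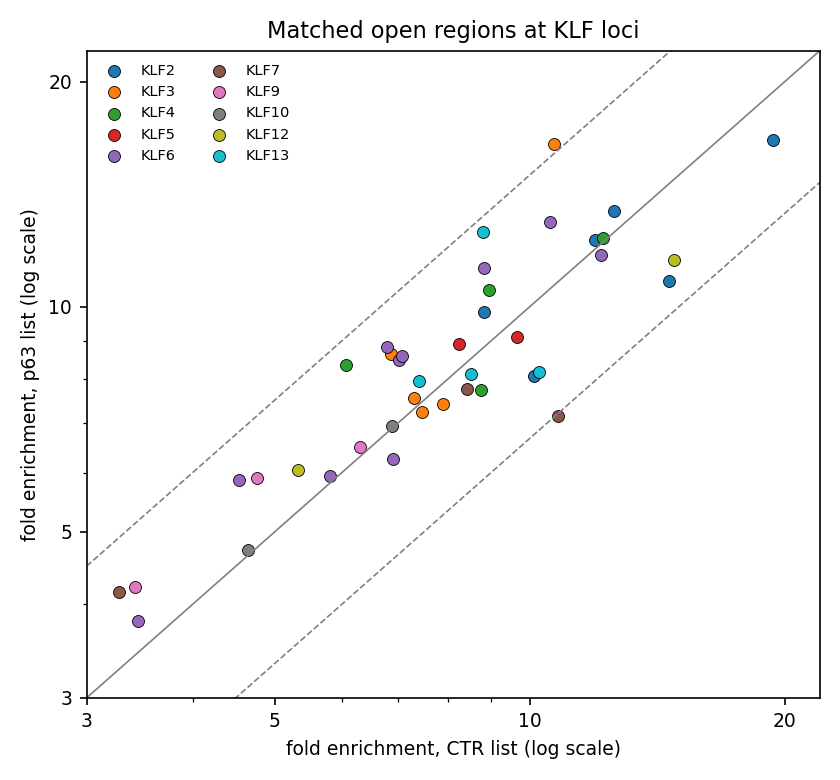
Fold enrichment of the 41 matched open regions at KLF loci in the CTR list (x axis) and the p63 list (y axis), both on log scales, coloured by gene, with lines of equality (solid) and of a 1.5-fold difference (dashed). All but 2 regions, 1 of KLF3 and 1 of KLF7, lie between the dashed lines.

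The region higher in p63 lay -43068 bp from the TSS of KLF3, at chr4:38621031-38621248, and 1694 bp from the TSS of the non-coding gene ENSG00000271958. Its fold enrichment was 10.7 with 29 reads (19.4 to 41.6) in the CTR list and 16.5 with 53 reads (39.7 to 69.3) in the p63 list, a ratio of 1.55. The next in this direction was a KLF13 region 116106 bp downstream of the canonical TSS, chr15:31442743-31443105, with 8.80 and 24 reads in CTR and 12.6 and 47 reads in p63, a ratio of 1.43. At both, the p63 pileup was higher, and the intervals of the lists still overlapped. The p63 windows of these 2 regions are shown because they differed most upward. The KLF3 window held no KLF-type, AP-1, TEAD or p63-family match, so its summit base is in capitals, and the KLF13 window held 1 TEAD match (ACATTCCT), in capitals, both on the plus strand.
KLF3 upstream region, chr4:38621064-38621264: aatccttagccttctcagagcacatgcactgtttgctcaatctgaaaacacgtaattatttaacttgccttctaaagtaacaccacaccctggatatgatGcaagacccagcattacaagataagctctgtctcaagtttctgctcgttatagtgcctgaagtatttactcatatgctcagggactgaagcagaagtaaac
KLF13 distal region, chr15:31442835-31443035: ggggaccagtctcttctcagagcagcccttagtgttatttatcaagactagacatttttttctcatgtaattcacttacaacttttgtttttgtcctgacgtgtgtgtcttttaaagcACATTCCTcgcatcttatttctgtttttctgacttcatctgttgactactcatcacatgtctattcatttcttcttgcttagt

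The region lower in p63 was a second promoter of KLF7. It lay in the first intron of the canonical transcript at chr2:207133777-207134281, with its CTR summit 33 bp from another annotated KLF7 TSS. Its fold enrichment was 10.8 with 37 reads (26.1 to 51.0) in the CTR list and 7.15 with 21 reads (13.0 to 32.1) in the p63 list, a ratio of 0.663. The pileup was lower in p63, and the intervals overlapped. At the canonical KLF7 TSS the ratio was 0.920, and at the other shared region in intron 1, 2262 bp from the TSS, it was 1.27.

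KLF6 had the most matched regions of any locus. The fold enrichment ratio was above 1 at 8 of 10, beside 58.1% of all matched regions. Its median was 1.21 and its range 0.907 to 1.30, so none passed 1.5. By pileup, chr10:3810167-3810599 did, with 49 reads in CTR and 80 in p63, a ratio of 1.63. The local background there was 6.13 reads in CTR and 8.53 in p63, and the Poisson intervals overlapped. Regions of 1 locus share a neighbourhood and a local background, so they are not independent. KLF9 had 3 of 3 above 1, from 1.03 to 1.24. At its higher ratios the summits compared lay apart, at 70412776 in CTR and 70412157 in p63, and at 70419203 in CTR and 70420060 in p63. KLF10 had 2 of 2 above 1, at 1.01 and 1.02. KLF2 was divided, with 3 of 6 above 1 and a lowest ratio of 0.743 at chr19:16338515-16339408, 14221 bp downstream, where the fold enrichment was 14.6 in CTR and 10.8 in p63. The medians of the 10 loci ran from 0.920 at KLF7 to 1.24 at KLF9. The middle 95% of all matched regions ran from 0.706 to 1.54. That is a range of single regions, and medians vary less, so it does not show whether a locus is unusual.

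The strongest open region by fold enrichment at any KLF locus lay -45426 bp from the TSS of KLF2, at chr19:16279267-16279610, and was shared. It had 19.4 with 73 reads in the CTR list and 16.7 with 70 reads in the p63 list, a ratio of 0.863. It held 3 matches to the AP-1 site, TGAGTCA or its reverse complement TGACTCA, the sequence bound by FOS and JUN proteins. AP-1 matches were present at 9 of 49 CTR regions, 18.4% (9.98% to 31.4%), beside 26.9% of all, and at 11 of 47 p63 regions, 23.4% (13.6% to 37.2%), beside 25.4%. TEAD matches (ACATTCCA, ACATTCCT, GCATTCCA or GCATTCCT, both strands) were at 3 and 5 regions, beside 8.9% and 8.24% of all. Both motifs were near the background.

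Of the 14 regions open in 1 list only, 10 overlapped a weaker peak of the other list and 4 overlapped none. In CTR they were 2 of 28 promoter regions, beside 10%, and 6 of 21 others, 28.6%, beside 20.9%. In p63 they were 0 of 25 promoter regions, which allows up to 13.3%, beside 15.8%, and 6 of 22 others, 27.3%, beside 29.2%. No promoter region at the KLF loci, a class that includes regions near TSSs of other genes, was thus open in p63 alone. The KLF4 region, chr9:107480462-107481211, was 1 of the 4. It was intergenic, 9227 bp downstream of the TSS, and had a fold enrichment of 7.69 with 16 reads (9.15 to 26.0) in the CTR list. Its window held 1 AP-1 match. The other CTR region without a p63 peak was chr2:207182757-207183276, -17068 bp from the KLF7 TSS, with 7.60 and 19 reads. The second p63 region without a CTR peak, after the KLF9 region with a p63-family site, was chr9:70411150-70411509 in intron 1 of KLF9. It had a fold enrichment of only 3.59 but 48 reads, over a local background of 12.7 reads, next to the open regions of the KLF9 TSS. The 4 were close to the threshold, with −log10 q from 10.7 to 12.4.

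Where the other list had a weaker peak, the fold enrichment ratio of p63 to CTR ran from 0.562 to 0.960 for the 6 CTR-only regions and from 1.06 to 2.04 for the 4 p63-only regions. These ratios follow from how the regions were chosen and are given as a description. At KLF7, 2 such CTR regions were found. The first, chr2:207121771-207122349, lay in intron 2, 79 bp from the TSS of the intronic transcript KLF7-IT1, and had 9.28 with 22 reads in CTR against 6.11 with 12 reads in p63. The second, chr2:207188576-207188905, had 7.34 with 15 reads against 7.05 with 14 reads, a difference of 1 read. Likewise at KLF6, chr10:3805341-3805593 had a −log10 q of 10.5 in CTR and 9.97 in p63, with more reads in p63, 33 against 29. Thus 2 of the 10 were set apart by a −log10 q gap under 1. KLF12 had 1, chr13:73913153-73913578 in intron 3, with 9.18 and 19 reads in CTR against 7.05 and 14 reads in p63.

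KLF13, with a window of 167 kb and picked out after the values were seen, had the most regions open in 1 list only. They were 3 of 7 open regions in p63, beside 23.9% of all, and 1 of 5 in CTR, beside 16.5%. The strongest was chr15:31344840-31345352 in intron 1, 18425 bp downstream of the TSS, with a fold enrichment of 10.2 and 25 reads (16.2 to 36.9) in p63 against 4.99 and 11 reads in CTR, a ratio of 2.04. The CTR region, chr15:31391832-31392659, lay 627 bp from another KLF13 TSS and had 8.66 with 27 reads against 5.42 with 21 reads in p63. The remaining p63 region, chr15:31398802-31399077, had 6.30 with 19 reads against 5.93 with 14 reads. It was also the weakest open region of the p63 list at these loci, with a −log10 q of 10.3, and the strongest p63 peak left out was the KLF6 peak at 9.97. In the CTR list the weakest kept was a KLF7 region at 10.1 and the strongest left out a KLF13 peak at 9.25. By distance, the farthest regions kept outside a gene body were the KLF13 distal region, 49.4 kb from a TSS in both lists, and the nearest left out was a KLF9 region at 52.6 kb in CTR and 52.5 kb in p63.

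Weak peaks at the KLF loci were more numerous in the p63 list. Under the threshold there were 29 peaks in the CTR list, 37.2% (27.3% to 48.3%) of the 78, beside 44% of all CTR peaks. In the p63 list there were 51, 52.0% (42.3% to 61.7%) of the 98, beside 43.1% of all p63 peaks. Both intervals included the background. The p63 count was 1.76 times the CTR count at the KLF loci and 1.06 times over all peaks. Weak peaks without any counterpart in the other list numbered 11 in CTR and 31 in p63, 2.82 times as many, beside 19750 and 22228 over all peaks, 1.13 times as many. By gene, weak peaks numbered 0 and 5 at KLF6, 1 and 6 at KLF7, 2 and 5 at KLF10, 7 and 10 at KLF13, and 5 and 4 at KLF9, the only locus with more in CTR. This comparison was made after the values were seen.

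The same counts were made at relatives of the 10 genes, beside the background of 23.9% for p63-only and 16.5% for CTR-only regions. At the 7 other KLF genes (KLF1, KLF8, KLF11, KLF14, KLF15, KLF16 and KLF17), 8 of 31 p63 regions were open in that list only, 25.8% (13.7% to 43.2%), and 2 of 25 CTR regions, 8% (2.22% to 24.97%), were open in CTR only. At SP1 to SP9 the counts were 5 of 41, 12.2% (5.32% to 25.5%), and 1 of 36, 2.78% (0.492% to 14.2%), the latter under the background. The p63-only shares of the other KLF and the SP genes had intervals that included the background, and differences between the sets were not tested. Of the marker genes of the labelled cell type, 9 of 10 fibroblast genes had an open promoter in each list, COL3A1 being the exception, while keratinocyte genes had 1 of 8 in CTR and 2 of 8 in p63, and endothelial and blood genes 1 of 6 in each. Over all open regions the median pileup was 33 reads in both lists, against 45 in CTR and 49 in p63 at the KLF loci. The median fold enrichment went the other way, 9.37 in CTR and 9.59 in p63 over all, against 8.26 and 8.07 at the KLF loci.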

How the data were processed

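ATAC-seq was performed on the 4 samples, 2 of each group. The authors mapped reads to hg38 with Bowtie2 (version 2.3.4.3 per the labels) and called peaks with MACS2, and they deposited a single list for each group. Which MACS2 version and settings were used, and whether duplicates were removed, reads shifted or regions excluded, is not given in the sources used here. Each deposited peak carries its fold enrichment, its p-value and q-value as −log10, and a summit offset. Total read depth is not in these lists, and no value per replicate is, so precision is given by counting intervals only.

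Peaks on chromosomes 1 to 22, X and Y were read with pandas 2.3.3 and numpy 2.4.6. The summit pileup in reads and the local background were solved from the deposited fold enrichment and −log10 p as whole reads with a Poisson model (scipy 1.17.1), within 0.001, for 99.99% of peaks. Genes and TSSs came from GENCODE release 44. Regions were matched by an overlap of 1 bp, a shared CTR region being paired with the overlapping p63 region of highest −log10 q. A ratio of 1.5 was used as the limit for matched regions. Motifs were searched in the reference within 100 bp of the summit with pysam 0.24.0. The sequences of some windows are not reported here. The overlap, pileup and site search were tested on simulated data.

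The regions named are the strongest open region within 1 kb of the canonical TSS, every region absent from the other list, the strongest region open in 1 list only, up to 2 matched regions past 1.5 in each direction, every region with a p63-family site and every KLF4 exon peak. Other regions were named after their values were seen. The members and lists were chosen with earlier results of these data known.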

Additional observations from a re-analysis of the deposited data

How the results depend on the processing

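No paired analysis was possible because each group was deposited as 1 pooled list, and for the same reason no replicate could be left out. With all deposited peaks, the regions numbered 78 in CTR and 98 in p63, those in 1 list only 13 and 33 (21.4% and 27.1% of all peaks), and the matched regions past 1.5 were 5 higher and 5 lower of 65 (7.92% and 5.52% of all). At a −log10 q of 20 or more, 32 CTR regions remained, 5 of them CTR-only (15.4% of all). With a window of 100 kb there were 79 and 85 regions, and 17 of the 85 were p63-only, beside 23.9% of all open regions of that list. Requiring no overlap with any peak left 2 regions in each list (3.29% and 12% of all), and equal numbers of top-ranked peaks left 3 p63-only regions of 44. The share over all peaks was not computed for equal numbers, so this lower count cannot be set against the whole list. The matched region higher in p63, at KLF3, was no longer past 1.5 when ratios were divided by their overall median (0 regions), and by pileup 3 were higher and 2 lower (7.39% and 4.81% of all). The p63-family site share was 0% with at most 2 mismatches. The KLF motif share in the p63 list was 2.13% with the strict forms, beside 1.64% of all, and 34.0% over whole peaks. For whole peaks the share of all open regions was not computed. The p63 regions at KLF loci were also wider, with a median of 769 bp against 542 bp over all. Under the other alternatives, a window of 25 kb, canonical TSSs, KLF4 exon peaks left out, an overlap of 50% of both peaks, nearest summits and at most 4 mismatches among them, counts stayed within 1.5 times and shares within their intervals. A pileup of 15 reads limits what can be told of the weakest regions.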
